A study of Mus musculus with 12 samples.

Results

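The genes of vessel mural cells described here were followed across the left ventricle of mice whose aorta was banded and then debanded. The 9 genes were chosen by name, as known markers, and with earlier results of these data known. All probe sets annotated to 1 of these symbols alone were taken from an array table in which 10435 genes could be tested. All 9 passed the filter on dim signals. Of their 18 probe sets, 16 passed, and each gene was represented by the probe set with the highest mean over the 12 arrays. The members fall into 4 pericyte genes, Cspg4, Pdgfrb, Notch3 and Rgs5, and 5 contractile smooth muscle genes, Myh11, Tagln, Cnn1, Mylk and Smtn.

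The study used male C57BL/6 mice that were 7 weeks old at the first operation, with 1 Affymetrix array per sample and 3 samples per group. The labels give each sample its own name but do not say that each is a separate mouse, so p-values measure the spread between these samples. AB mice carried an aortic band, which raises the pressure the left ventricle works against, for 4 weeks. The sAB mice had a sham operation instead and were killed at the same time. DB3 mice were banded for 4 weeks, had the band removed, and were killed 3 days later. The sDB3 mice, the sham for DB3, had the sham in place of banding, and their label adds a debanding step without saying what it was. No transgene or drug is named for any group. Whole left ventricle was used, so cardiomyocyte RNA makes up much of each sample and mural cells reach the array through the vessels left in the tissue.

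Mural cells wrap the endothelial tube. Pericytes sit singly on capillaries and venules within the basement membrane, are recruited by endothelial PDGF-B through the receptor Pdgfrb, and carry the proteoglycan NG2, the product of Cspg4. Smooth muscle cells form the rings of arteries and arterioles and contract through smooth muscle myosin after Mylk phosphorylates its light chain. Their contractile genes are a classical target of serum response factor (SRF) with its coactivator myocardin, which acts at CArG boxes in DNA, and Notch3 is the receptor through which arterial smooth muscle receives Notch signals.

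BioC, a bacterial transcript added as a control, read 8.29 to 8.60 log2 units on AB arrays, 8.32 to 8.45 on DB3 arrays and 8.28 to 8.60 on sDB3 arrays, against 10.15 to 10.51 on sAB arrays. With sAB on either side of a comparison, array handling and group cannot be told apart, and AB was also set against sDB3, whose BioC range overlaps its own. That comparison reuses the same AB arrays, and the sDB3 label adds a debanding step at a later time. Banding, that step and time cannot be told apart in it. The Actb 3' minus 5' signal, a measure of RNA quality, was 1.02 to 1.13 on AB, 1.20 to 1.26 on sAB, 1.11 to 1.32 on DB3 and 1.20 to 1.25 on sDB3 arrays. Its part in the results was not tested. Between 33.5% and 36.8% of probe sets on an array lay within 0.01 of the lowest value, 2.23, where differences are compressed. With 3 arrays in each group, an exact permutation test cannot go below a p of 0.1, so the calls rest on the spread that limma pools over genes and groups.

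The banded ventricle held more transcript of 3 of the 4 pericyte genes than its sham. Cspg4, Notch3 and Pdgfrb rose in AB against sAB, and Rgs5 did not pass the test. Among contractile genes only Smtn rose, by a small amount. In total, 4 of 9 members were higher and 0 lower in AB against sAB at an adjusted p under 0.05, where 12% of all 10435 genes were higher and 7.69% lower. Of all calls, 61.0% were higher, and 51.1% after quantile normalization or 50.3% after median centring of the arrays, with the same 4 members called. In bulk tissue, more cells of a type and more RNA per cell cannot be told apart.

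Cspg4, which encodes the NG2 proteoglycan of pericytes, glial precursors and some smooth muscle, had log2 signals of 8.26, 8.46 and 8.49 in AB hearts, against 7.30, 7.54 and 7.16 in sAB hearts. Every AB array lay above every sAB array. The difference of 1.07 ± 0.134 (log2, SE, n = 3 per group) is 2.10-fold, with an adjusted p of 0.000595 by limma. Against the later sham sDB3, with 7.53, 7.37 and 7.75, the AB arrays were again all higher, by 0.85 ± 0.134 (adjusted p = 0.00248). The other Cspg4 probe set rose by 1.01 against sAB and 0.64 against sDB3. Its signals were 6.72, 6.74 and 6.81 in AB, against 5.68, 5.89 and 5.68 in sAB. Cspg4 also marks glial cells: of the 6 glial markers 2 were tested, S100b reached at most 3.17 and Gfap 2.90 on any array, and the list mean was 6.44 to 6.55 in AB and 6.36 to 6.57 in sAB, ranges that overlap. In sDB3 the glial mean was 6.71 to 7.01, above AB, and Sox10, a glial transcription factor gene, was lower in AB than in sDB3, with a log2 difference of -1.06 (adjusted p = 0.00707), and higher in sDB3 than in sAB by 1.03 (adjusted p = 0.0107). Sox10 was dim, at 4.15, 4.31 and 4.00 in AB, 4.28, 4.31 and 3.97 in sAB and 5.06, 5.63 and 4.94 in sDB3. The AB and sAB values lie near the filter limit of 4. The part of these markers in the Cspg4 values was not tested.

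Notch3, the Notch receptor of mural cells, read 8.89, 9.15 and 8.92 in AB hearts and 8.18, 8.48 and 8.50 in sAB hearts. The groups did not overlap, and the log2 difference was 0.60 ± 0.105 (1.51-fold, limma adjusted p = 0.00342). The call did not carry over to the later sham. In sDB3 hearts Notch3 read 8.83, 8.66 and 8.66, all below AB, but by 0.27 ± 0.105 (adjusted p = 0.0867). The other Notch3 probe set gave 0.61 (adjusted p = 0.0345) and 0.20 (adjusted p = 0.458) for these comparisons in a fit of all probe sets.

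Pdgfrb, the receptor through which PDGF-B recruits pericytes, read 11.68, 11.70 and 11.79 in AB hearts, against 11.32, 11.40 and 11.16 in sAB hearts. It rose by 0.43 ± 0.117 (1.35-fold, limma adjusted p = 0.0262). Against sDB3, with 11.10, 10.96 and 11.44, the rise was 0.56 ± 0.117 (adjusted p = 0.00897). AB was above each sham on every array. The call against sAB was lost without AB replicate 1, 2 or 3 or sAB replicate 1 or 3 (adjusted p up to 0.0918, differences 0.36 to 0.49) and with no filter on dim probe sets, whereas that against sDB3 was kept without any single array (adjusted p up to 0.0400). The other Pdgfrb probe set rose more, by 0.68 against sAB (adjusted p = 0.000701) and by 0.59 against sDB3 (adjusted p = 0.00264).

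Rgs5 encodes a regulator of G protein signalling that is among the classical pericyte markers. It read 13.73, 13.74 and 13.60 in AB hearts and 13.70, 13.66 and 13.61 in sAB hearts, which overlap. The difference was 0.03, with a 95% interval of -0.12 to 0.18 (limma adjusted p = 0.778), so a change of the size seen for Cspg4 or Notch3 lies outside it. Its sign turns to -0.01 when arrays are centred on their medians. The 3 further Rgs5 probe sets differed by 0.15, -0.05 and -0.01, none past the threshold. Rgs5 therefore did not share the rise of the other pericyte members.

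**Figure D1:**
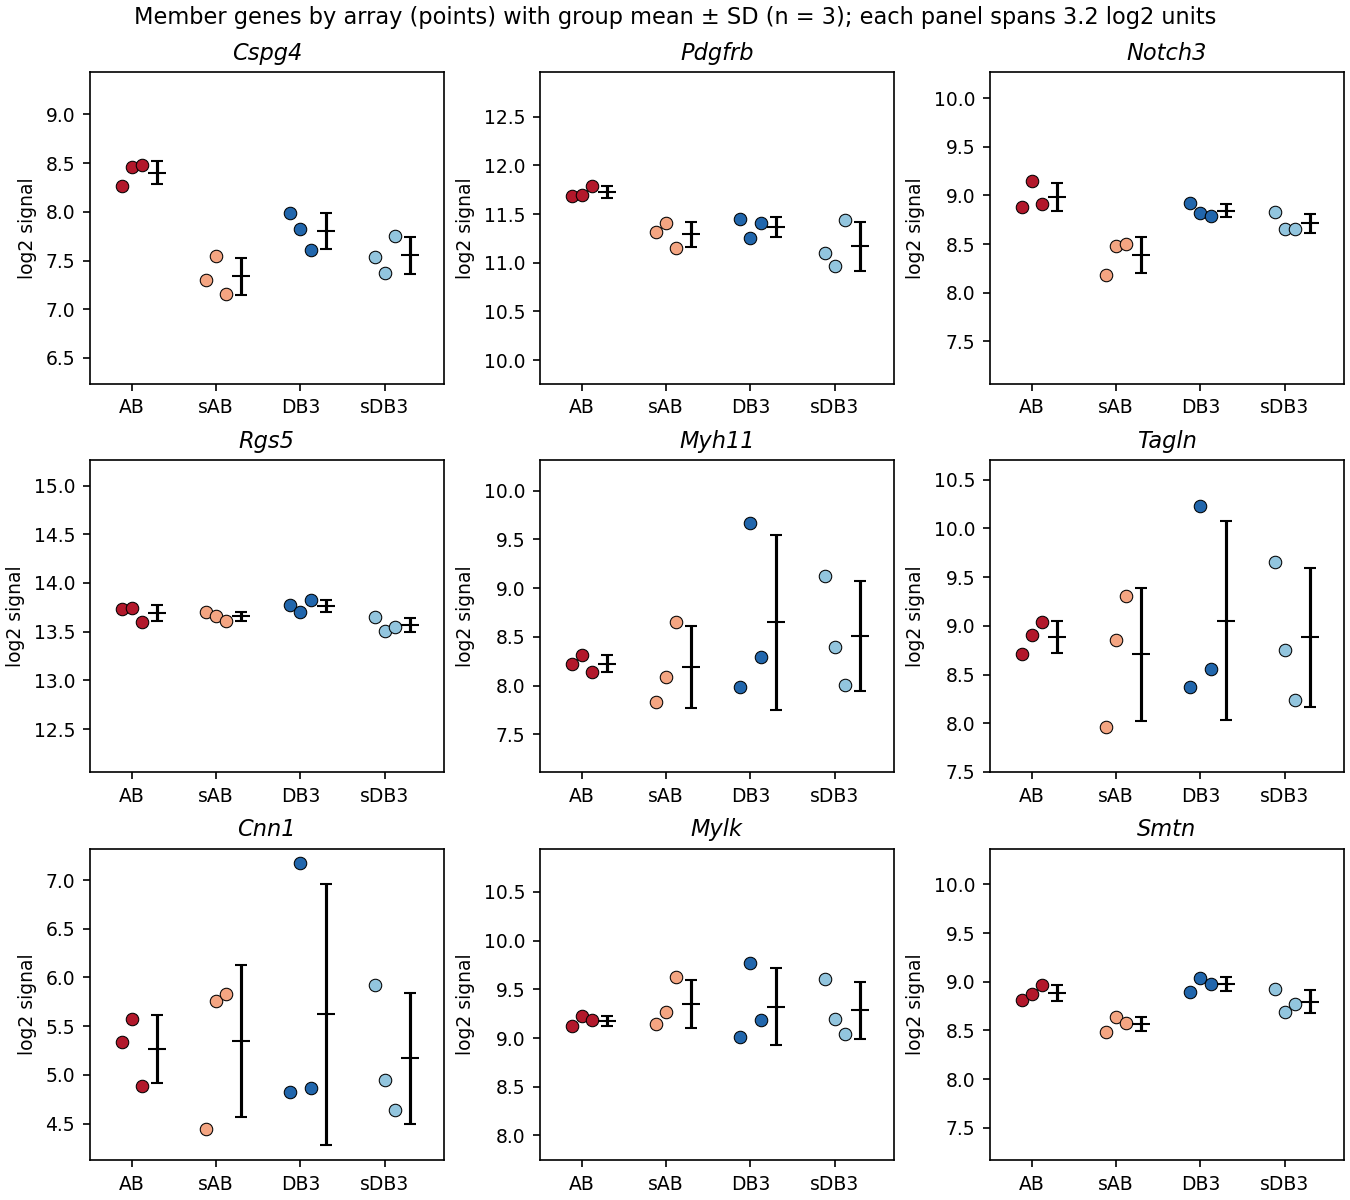
Log2 signal of the 9 genes on each array (points) in AB, sAB, DB3 and sDB3 hearts, with group mean ± SD (n = 3); every panel spans the same number of log2 units. Cspg4 reads 8.26 to 8.49 in AB and 7.16 to 7.54 in sAB, Rgs5 spans 13.50 to 13.82 over all arrays, and Myh11, Tagln and Cnn1 spread widely within groups.

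Of the contractile genes Smtn, which encodes smoothelin, a cytoskeletal protein of contractile smooth muscle, read 8.81, 8.87 and 8.97 in AB hearts and 8.49, 8.64 and 8.58 in sAB hearts. It rose by 0.32 ± 0.0796 (1.24-fold, limma adjusted p = 0.0194). The call was lost without AB replicate 2, AB replicate 3 or sAB replicate 1 (adjusted p up to 0.0819). Against sDB3, where Smtn read 8.93, 8.69 and 8.77, the groups overlapped and the difference was 0.09 ± 0.0796 (adjusted p = 0.459).

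Myh11, the smooth muscle myosin heavy chain and the most specific contractile marker, read 8.22, 8.31 and 8.14 in AB hearts, against 7.83, 8.09 and 8.65 in sAB hearts. The difference was 0.03, with a 95% interval of -0.87 to 0.93 (limma adjusted p = 0.966). Tagln, which encodes the actin-binding protein SM22, read 8.71, 8.91 and 9.04 in AB and 7.97, 8.85 and 9.30 in sAB hearts. Its difference was 0.18, interval -0.94 to 1.30 (adjusted p = 0.838). For both genes the sAB arrays reached both below and above all AB arrays.

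Cnn1, calponin 1, which binds actin and damps the myosin ATPase, lay nearest the lowest value of the arrays, at 5.34, 5.57 and 4.89 in AB and 4.45, 5.76 and 5.83 in sAB hearts. It differed by -0.08, interval -1.43 to 1.28 (limma adjusted p = 0.944). Mylk, the myosin light chain kinase, read 9.12, 9.22 and 9.18 in AB and 9.15, 9.27 and 9.63 in sAB hearts, a difference of -0.17, interval -0.62 to 0.27 (adjusted p = 0.587). The other Mylk probe set that passed the filter differed by 0.0013 (limma adjusted p = 0.999 in a fit of all probe sets). A further probe set of Mylk (mean 2.915) and the other of Myh11 (mean 2.234) were too dim to pass. For Myh11, Tagln and Cnn1 the intervals hold both a rise as large as that of Pdgfrb and a fall of that size. These comparisons therefore do not show that the genes were alike in the groups.

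**Figure D2:**
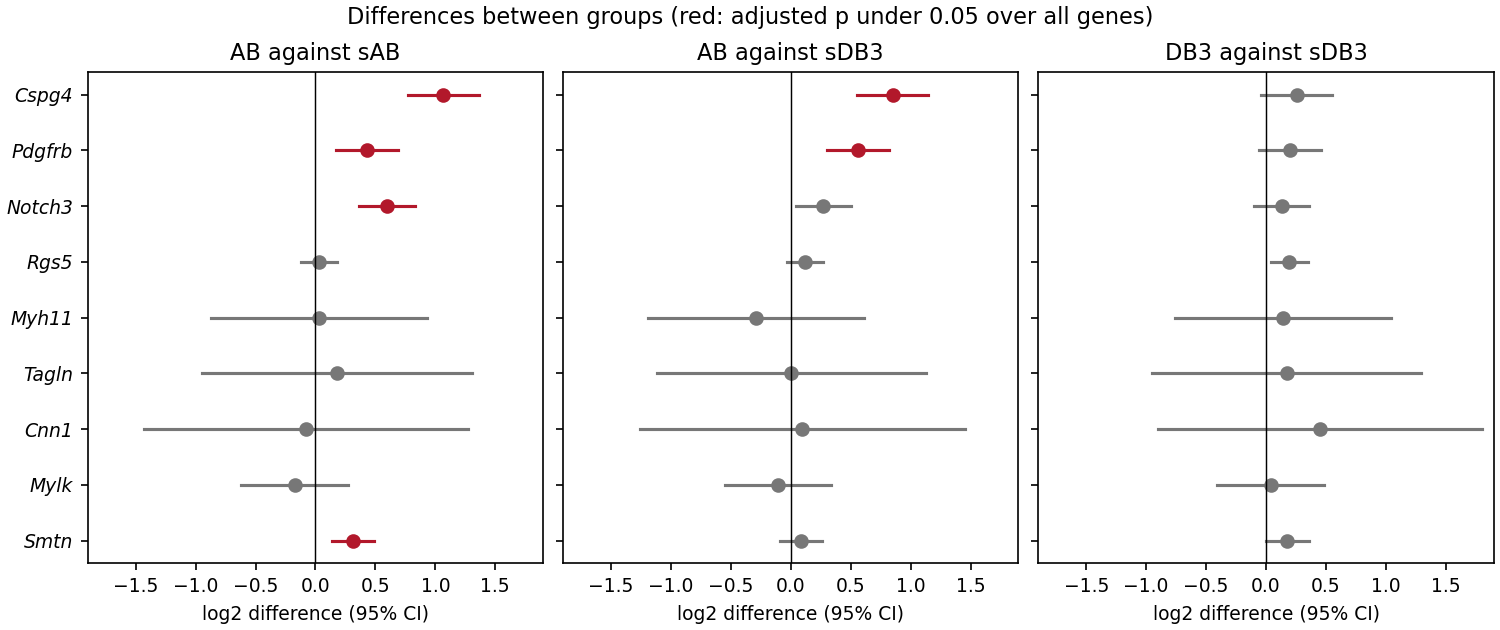
Log2 differences with 95% intervals from limma for the 9 genes in AB against sAB, AB against sDB3 and DB3 against sDB3; red marks an adjusted p under 0.05 over all genes. Cspg4 and Pdgfrb are red against both shams, Notch3 and Smtn against sAB, and no gene in DB3 against sDB3, while Cnn1 has the widest intervals.

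Against sDB3, 2 of 9 members were higher in AB, Cspg4 and Pdgfrb, and 0 lower, where 17.3% of all genes were higher and 4.69% lower. The share of calls that were higher, 78.7%, depended on scaling, with 55.8% after quantile normalization and 35.9% after median centring, and the same 2 members were called under both. All genes had a median log2 difference of 0.11 in that comparison, and the median of the 9 members was 0.10. Against sAB the median of the members was 0.18, beside 0.01 for all genes. Markers of some neighbouring cells differed too. The mean of 10 endothelial markers was 9.44 to 9.51 in AB, against 9.25 to 9.32 in sAB and 9.10 to 9.23 in sDB3 hearts, with 2 markers higher against sAB and 5 against sDB3. The mean of 10 fibroblast markers was 11.45 to 11.90 in AB, 10.71 to 11.55 in sAB and 10.95 to 11.03 in sDB3, and that of 10 cardiomyocyte markers 15.48 to 15.57, 15.59 to 15.61 and 15.65 to 15.68. The mean of 8 macrophage markers was 9.169 to 9.385 in AB, 9.173 to 10.282 in sAB and 9.077 to 9.286 in sDB3, with 0 called against either sham. The highest of these sAB values was on replicate 3. The part of all these markers in the pericyte values was not tested.

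Myh11, Tagln, Cnn1 and Mylk differed more between samples of 1 group than between group means. Tagln, for one, had group means between 8.71 and 9.05. Pooled over the groups, the SD between samples was 0.864 log2 units for Cnn1, 0.716 for Tagln and 0.573 for Myh11, beside a median of 0.133 for all genes. Of all genes 99.6% varied less than Cnn1, 99.3% less than Tagln and 98.6% less than Myh11. Mylk, at 0.277, varied more than 88.6% of genes. Smtn did not share this spread, with an SD of 0.0890, and neither did Rgs5 with 0.0673, Notch3 with 0.131, Pdgfrb with 0.151 or Cspg4 with 0.176.

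**Figure D3:**
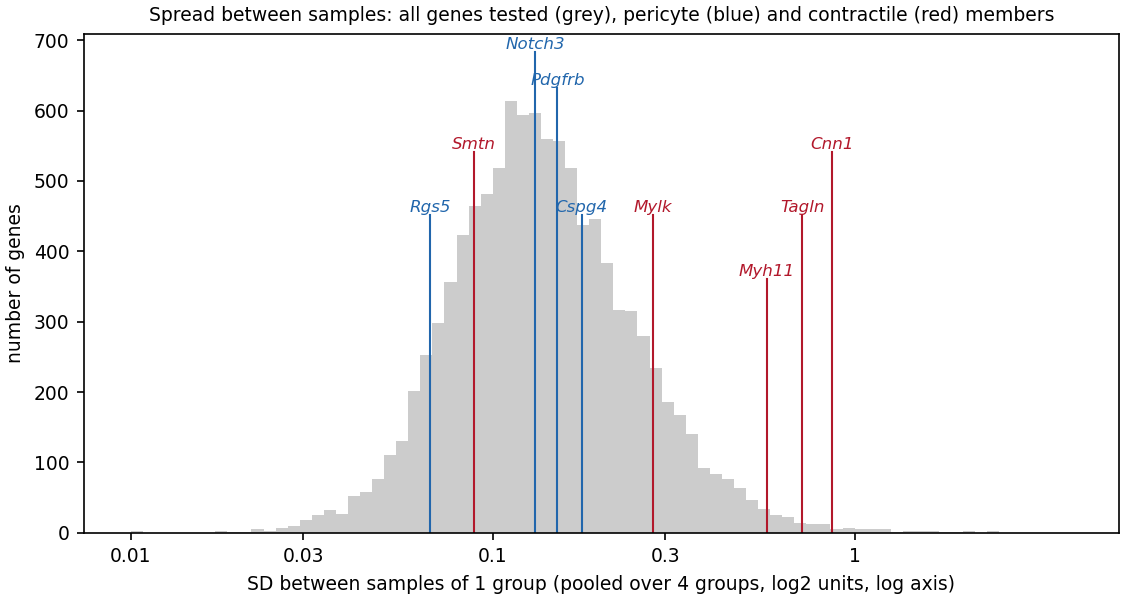
Distribution over 10435 genes of the SD between samples of 1 group, pooled over the 4 groups (log2 units, log axis), with the pericyte members in blue and the contractile members in red. Cnn1 (0.864), Tagln (0.716) and Myh11 (0.573) lie in the right tail and Rgs5 (0.0673) left of the bulk.

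The spread came from the same arrays for each of these genes. DB3 replicate 2 read highest of the 12 arrays for all 5 contractile members and for none of the 4 pericyte members, whereas it was highest for 6.39% of all genes. There Cnn1 read 7.17, against 4.83 and 4.86 on the other DB3 arrays. Tagln read 10.23, against 8.37 and 8.56, Myh11 9.67, against 7.99 and 8.29, and Mylk 9.77, against 9.01 and 9.19. The next highest arrays for Myh11, Tagln and Cnn1 were sDB3 replicate 1 (9.12, 9.65 and 5.92) and sAB replicate 3 (8.65, 9.30 and 5.83), and for all 3 genes sAB replicate 1 was the lowest (7.83, 7.97 and 4.45). For Myh11, each group other than AB thus held 1 array well above its others. For Tagln this held in DB3 and sDB3, whereas in sAB replicate 1 lay low (7.97) and the other arrays read 8.85 and 9.30. For Cnn1 a second sAB array (5.76) was as high. The AB arrays lay closer together, with SDs of 0.0871 for Myh11, 0.164 for Tagln, 0.349 for Cnn1 and 0.0512 for Mylk, below those of the other 3 groups.

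Over the 12 arrays the 6 pairs among Myh11, Tagln, Cnn1 and Mylk correlated at 0.87 to 0.94 (Pearson's r), and at 0.90 to 0.99 after each group's mean was taken off. Pairs of Smtn with these 4 reached 0.15 to 0.47, and 0.58 to 0.70 within groups. The 20 pairs of a pericyte with a contractile member ran from -0.49 to 0.81, with a median of -0.02. Pdgfrb and Cspg4 correlated at 0.87 and at 0.73 within groups, and Rgs5 with the other pericyte members at 0.27 to 0.37. These values describe 12 arrays that share groups and normalization.

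**Figure D4:**
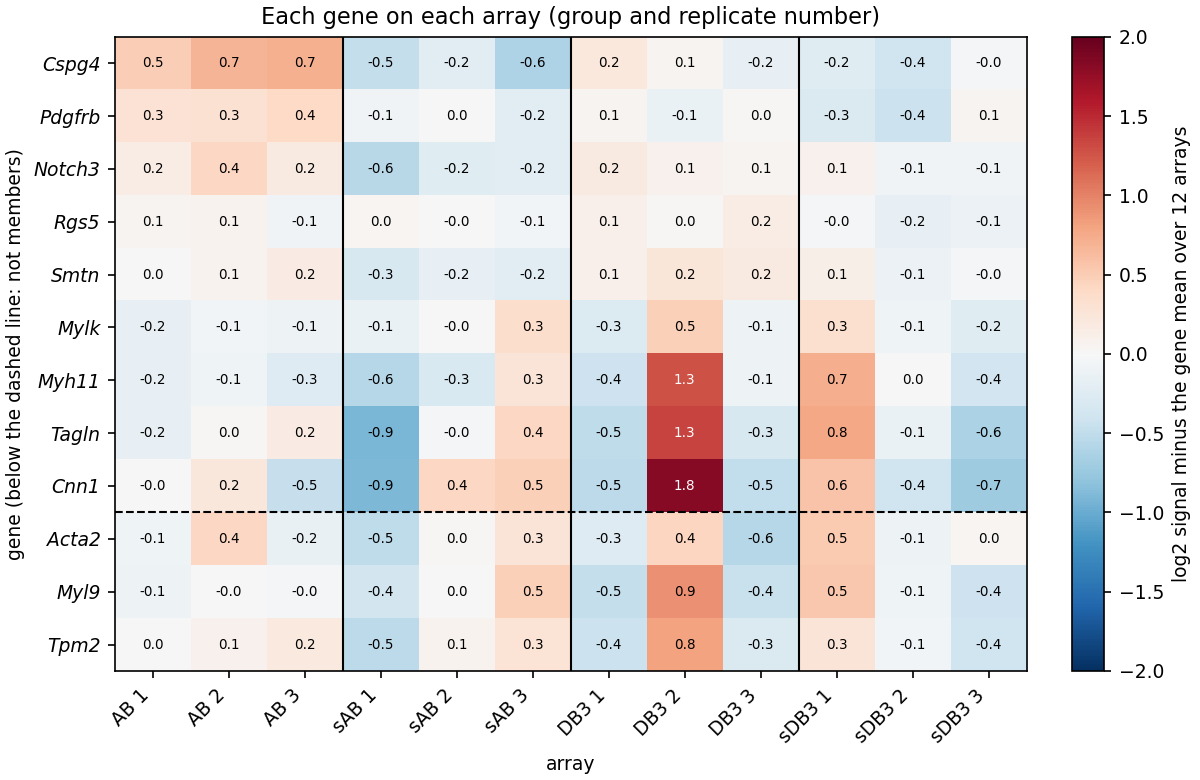
Log2 signal minus the gene's mean over the 12 arrays (columns, by group and replicate number) for the 9 members and, under the dashed line, Acta2, Myl9 and Tpm2. Cspg4 and Pdgfrb are high on the 3 AB arrays, while Myh11, Tagln, Cnn1, Myl9 and Tpm2 are highest on DB3 replicate 2, with sDB3 replicate 1 high as well.

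Some other contractile genes moved with them. Myl9, the regulatory light chain that Mylk phosphorylates, was 1.37 log2 units higher on DB3 replicate 2 than the mean of the other DB3 arrays. Tpm2, a tropomyosin, was 1.15 higher there and Acta2, smooth muscle actin, 0.85. Acta2 followed the members less closely, as it read highest on sDB3 replicate 1 (12.71) and nearly alike on DB3 replicate 2 (12.61) and AB replicate 2 (12.60). Of the 15 measured genes of a wider contractile list, 5 read highest of all 12 arrays on DB3 replicate 2 and 11 read highest of the 3 DB3 arrays, where 30.6% of all genes did. The latter also held for 7 of 10 fibroblast, 5 of 10 cardiomyocyte, 1 of 10 endothelial, 2 of 8 macrophage and 2 of 2 glial markers, so it is not particular to contractile genes. The array was singled out because the contractile members were highest on it. The mean of the 10 fibroblast markers on this array was 11.50, against 10.81 and 11.03 on the other DB3 arrays. The endothelial mean was 9.30, against 9.34 and 9.21, and the cardiomyocyte mean 15.57, against 15.58 and 15.55. What sets this array apart was not tested.

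The 2 genes whose signals were most like each member over the 12 arrays are given by Pearson's r. Tagln was most like Tpm2 (r = 0.97) and Myl9 (0.95), Mylk most like Myl9 (0.96) and Egf (0.91), Myh11 most like Ccdc3 (0.94) and Tagln (0.94), and Cnn1 most like Mustn1 (0.95) and Tagln (0.92). Cspg4 was most like Heyl (0.96), a Notch target gene of smooth muscle, and Bop1 (0.94). Pdgfrb was most like Gjc1 (0.97), the vascular connexin 45, and Tsr1 (0.96). Notch3 was most like Lpgat1 (0.97) and Tbc1d10b (0.96), Smtn most like Tpcn1 (0.97) and Pbxip1 (0.93), and Rgs5 most like Eif5b (0.91) and Parp6 (0.90). They are the highest values among all genes tested.

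Because the contractile genes moved together, the stretch before their start sites was searched for the CArG box, the site of SRF, in RefSeq promoters (GRCm38.p6, 250 bases before to 50 after the start). The box was taken as CC, then 6 bases that are each A or T, then GG, which reads the same on both strands. It occurs in 1.63% of 32851 promoters, and with 1 of the 6 inner bases allowed to be C or G in 9.98%. An entry was found for 6 members, Cspg4, Notch3, Rgs5, Cnn1, Mylk and Smtn. None holds either form in this window, which says nothing of sites elsewhere in the genes. In the wider contractile list 2 of 16 matched genes, Myl9 and Vcl, hold the box and 4, with Acta2 and Synm, hold it with 1 inner base off. Srf itself holds 2, at 82 and 62 bases before its start. Shown are 110 bases each of the genes with boxes that are named here for their array pattern or role, with every box or near-box in capitals, followed by the same stretch of Cnn1 and Mylk, members with no match. They run 5' to 3' on the gene's strand, from 110 to 1 bases before the start, and for Myl9 from 180 to 71.
Srf, chr17:46556163-46556272, minus strand: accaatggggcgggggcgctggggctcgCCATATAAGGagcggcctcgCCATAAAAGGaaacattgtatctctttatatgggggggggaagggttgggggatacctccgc
Myl9, chr2:156775284-156775393, plus strand: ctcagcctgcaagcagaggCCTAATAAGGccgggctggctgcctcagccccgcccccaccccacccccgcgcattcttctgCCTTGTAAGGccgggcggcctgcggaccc
Acta2, chr19:34255374-34255483, minus strand: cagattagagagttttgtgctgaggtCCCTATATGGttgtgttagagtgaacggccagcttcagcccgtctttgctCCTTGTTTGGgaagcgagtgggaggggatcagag
Cnn1, chr9:22099143-22099252, plus strand: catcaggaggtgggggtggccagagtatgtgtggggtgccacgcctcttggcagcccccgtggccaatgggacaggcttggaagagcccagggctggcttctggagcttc
Mylk, chr16:34784840-34784949, plus strand: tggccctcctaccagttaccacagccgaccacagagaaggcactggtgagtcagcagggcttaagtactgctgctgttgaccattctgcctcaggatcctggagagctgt

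The levels of SRF and its coactivator were read on the same arrays. Srf read 9.16, 9.35 and 9.12 in AB hearts, against 8.74, 8.94 and 8.96 in sAB hearts, and rose by 0.33 ± 0.0939 (limma adjusted p = 0.0318). Against sDB3 (8.92, 8.68 and 8.79) it rose by 0.42 ± 0.0939 (adjusted p = 0.0123). Myocd, which encodes myocardin of cardiac and smooth muscle, read 10.10, 9.96 and 10.05 in AB and 10.42, 10.10 and 10.26 in sAB, a difference of -0.22 ± 0.139 (adjusted p = 0.287). The Srf call against sAB was lost without AB replicate 1, 2 or 3 or sAB replicate 1 or 2 (adjusted p up to 0.118), and that against sDB3 without AB replicate 2 (0.0507). On DB3 replicate 2, where contractile genes were high, Srf was 0.04 and Myocd 0.10 above the mean of the other DB3 arrays.

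Beyond the members, 16 of 17 other pericyte genes were measured, and in AB against sAB 5 rose and 1 fell, with a median of 0.24. Of all genes 12% were higher and 7.69% lower in that comparison. Anpep, the aminopeptidase CD13 of pericytes, read 6.22, 5.99 and 6.26 in AB hearts, against 4.26, 4.12 and 4.32 in sAB hearts, a rise of 1.93 ± 0.161 (limma adjusted p = 6.23e-05). Cox4i2, an isoform of a cytochrome oxidase subunit, rose by 1.22 ± 0.275 (adjusted p = 0.0117) and Ndufa4l2, a mitochondrial protein of hypoxic cells, by 0.97 ± 0.118 (adjusted p = 0.000504). Mcam, the adhesion molecule CD146, rose by 0.56 ± 0.0827 (adjusted p = 0.00134). Abcc9, the SUR2 subunit of the KATP channel in pericytes and cardiomyocytes, fell by 0.37 on the log2 scale (adjusted p = 0.00807) and is named after its value was seen, as the 1 gene that fell. Against sDB3 the Cox4i2 difference was 0.15 (adjusted p = 0.730), with signals of 5.68, 6.06 and 5.78 in AB, 5.59, 5.87 and 5.62 in sDB3 and 3.94, 5.26 and 4.67 in sAB hearts, so its call is limited to the comparison with sAB. Ndufa4l2 rose against sDB3 by 0.48 (adjusted p = 0.0176) and Mcam by 0.42 (adjusted p = 0.00683). Median centring ended both calls, and that of Ndufa4l2 was also lost after quantile normalization, when only the AB and sDB3 arrays were fitted, and without AB replicate 1 or 3 or sDB3 replicate 2. These 3 genes were set against sDB3 after their values were seen.

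Against sDB3, 8 of these 16 rose and 1 fell, with a median of 0.47, where 17.3% of all genes were higher and 4.69% lower. Gucy1b1, a subunit of the nitric oxide receptor, rose by 0.50 ± 0.101 (limma adjusted p = 0.00724), Enpep, aminopeptidase A, by 0.51 ± 0.106 (adjusted p = 0.00847) and Gjc1 by 0.50 ± 0.124 (adjusted p = 0.0182). For Enpep the AB and sAB means were 9.098 and 9.104, and sDB3 lay below sAB by 0.52 on the log2 scale (adjusted p = 0.0106). Its call is thus limited to the comparison with sDB3. Anpep also rose, by 0.62 ± 0.161 (adjusted p = 0.0208), where sDB3 hearts read 5.71, 5.62 and 5.27. Left-out arrays ended the calls of Anpep (AB replicate 1 or 3, or sDB3 replicate 3) and Gjc1 (AB replicate 2 or 3, or sDB3 replicate 2).

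Pdgfb, the ligand of Pdgfrb, read 9.04, 8.97 and 8.85 in AB hearts, against 8.12, 8.60 and 8.52 in sAB hearts, and rose by 0.54 ± 0.118 (limma adjusted p = 0.00987). It did not pass against sDB3 (0.22 ± 0.118, adjusted p = 0.212). Of the 5 PDGF genes 2 rose against sAB, Pdgfb and the fibroblast receptor gene Pdgfra (0.43), and Pdgfd fell by 0.42 on the log2 scale. Of all genes 12% were higher and 7.69% lower there. Against sDB3 Pdgfc alone rose (0.66), where 17.3% of all genes were higher. The Pdgfb call was kept without any single array. Those of Pdgfd and Pdgfra were lost without any AB array or sAB replicate 1 or 2, that of Pdgfra also without any DB3 array or sDB3 replicate 2 or 3. That of Pdgfc was lost without any AB or sDB3 array, sAB replicate 2 or DB3 replicate 1.

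Of 12 measured Notch pathway genes 3 rose and 0 fell against sAB, where 12% of all genes were higher and 7.69% lower. Heyl read 8.05, 8.11 and 8.34 in AB hearts, against 7.19, 7.12 and 6.85 in sAB hearts, a rise of 1.12 ± 0.143 (limma adjusted p = 0.000659). Notch4, an endothelial receptor, rose by 0.66 and the ligand Jag2 by 0.44. Against sDB3 also 3 rose and 0 fell, where 17.3% of all genes were higher and 4.69% lower. There Heyl rose by 1.03 ± 0.143 (adjusted p = 0.00133), Hes1, another Notch target, by 0.69 and Notch1 by 0.36, its arrays overlapping. Hes1 lost its call without AB replicate 2 or 3 or sDB3 replicate 2, and Notch1 without any array but DB3 replicate 2 and sDB3 replicate 2.

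In the angiopoietin system Angpt1, the mural ligand that steadies vessels through the endothelial receptor Tek, read 7.40, 6.68 and 7.13 in AB hearts, against 8.43, 8.38 and 8.73 in sAB and 8.11, 9.03 and 8.67 in sDB3 hearts. It fell by 1.44 on the log2 scale against sAB (limma adjusted p = 0.00242) and by 1.53 against sDB3 (adjusted p = 0.00229). Tie1, an endothelial receptor, rose by 0.54 and 0.53.

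Of 15 measured contractile list genes 3 rose and 0 fell against sAB, where 12% of all genes were higher and 7.69% lower. They were Synm (1.28 ± 0.229, limma adjusted p = 0.00383), Des (0.76 ± 0.0698, adjusted p = 9.87e-05) and Synpo2 (0.32 ± 0.0754, adjusted p = 0.0133). Synm and Des encode the intermediate filament proteins synemin and desmin, which cardiomyocytes also make. Acta2 read 12.10, 12.60 and 12.03 in AB and 11.67, 12.21 and 12.44 in sAB hearts, a difference of 0.14 ± 0.283 (adjusted p = 0.776). Among 11 measured paralogs of the members, Cnn2 (0.48) and the non-muscle myosin gene Myh10 (0.36) rose against sAB. Calls were lost for Synpo2 without AB replicate 3, for Cnn2 without AB replicate 2 or 3 or sAB replicate 1, and for Myh10 also without any sAB array or sDB3 replicate 1 or 3.

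Against sDB3, 3 of the 15 contractile list genes rose and 0 fell, near the shares of all genes, 17.3% higher and 4.69% lower. Synm rose 1.998-fold (limma adjusted p = 0.0132), Cald1, which encodes caldesmon, by 0.54 (adjusted p = 0.0104) and Des by 0.30 (adjusted p = 0.0144), the last call being lost without AB replicate 2 or 3 and after median centring. Of the 11 paralogs 1 rose and 2 fell against sDB3. Myh10 rose by 0.67 (adjusted p = 0.00295), Rgs2, a relative of Rgs5, fell by 0.92 on the log2 scale (adjusted p = 0.0148) and Mylk4, a kinase related to Mylk, by 0.70 (adjusted p = 0.00973). The Rgs2 call was lost when only the AB and sDB3 arrays were fitted. The calls of Cald1 and Mylk4 are limited to the comparison with sDB3. Their AB and sAB means were 11.33 and 11.21 for Cald1 and 10.18 and 10.28 for Mylk4. Between the shams, Cald1 was lower in sDB3 than in sAB by 0.42 on the log2 scale (limma adjusted p = 0.0326) and Mylk4 higher by 0.60 (adjusted p = 0.0220).

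**Figure D5:**
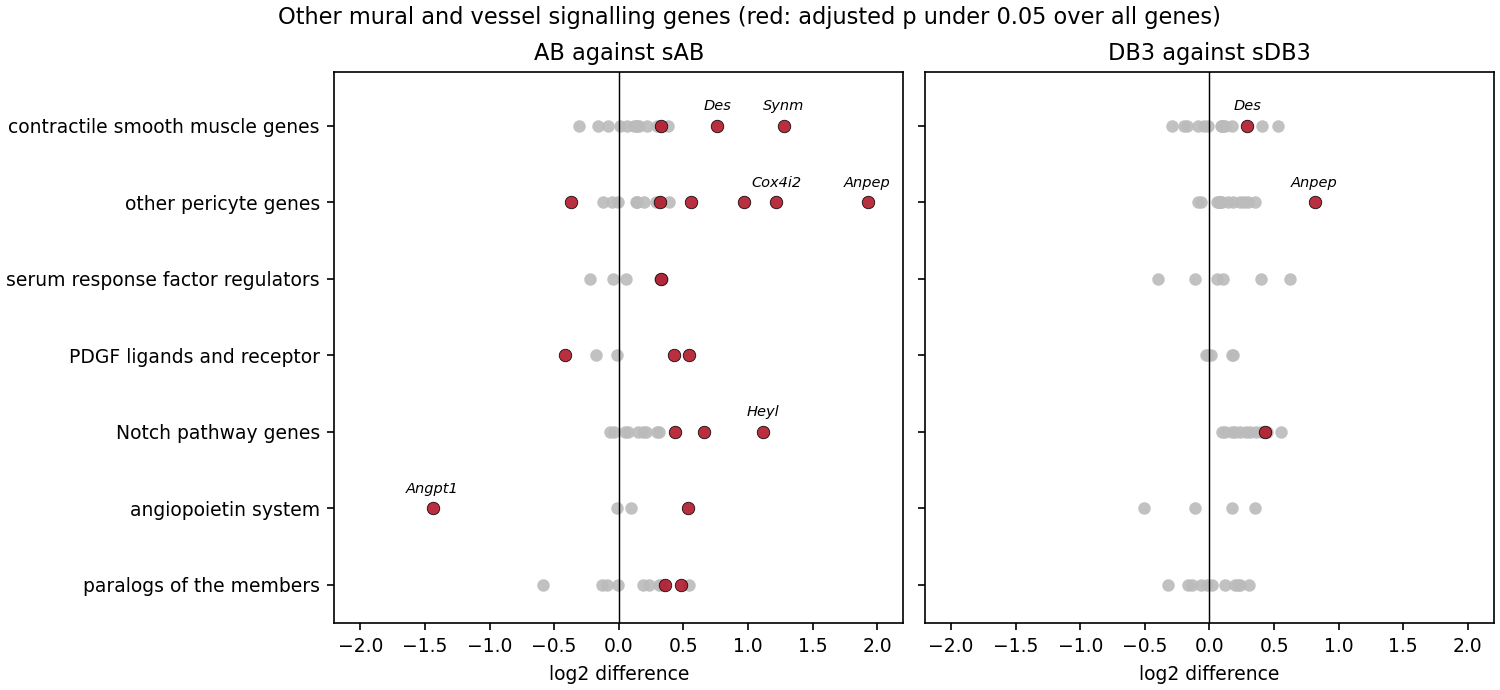
Log2 differences of the other mural and vessel signalling genes by list, in AB against sAB and DB3 against sDB3; red points have an adjusted p under 0.05 over all genes. Anpep (1.93), Synm (1.28), Cox4i2 (1.22) and Heyl (1.12) lie furthest right and Angpt1 (-1.44) furthest left in AB against sAB, and in DB3 against sDB3 only Des, Anpep and Notch1 are red.

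After debanding no member passed against its sham. In DB3 against sDB3, 0 of 9 members were higher and 0 lower by limma, where 5.37% of all genes were higher and 0.997% lower (84.3% of calls higher, against 53.8% after quantile normalization and 26.7% after median centring). At an unadjusted p under 0.05 there were 2, Rgs5 and Smtn. With a trended, robust prior in limma 1 passed, Rgs5 in DB3 against sDB3 (adjusted p = 0.0434). Cspg4 read 7.98, 7.82 and 7.61 in DB3 hearts, against 7.53, 7.37 and 7.75 in sDB3 hearts, which overlap, a difference of 0.26 ± 0.134 (adjusted p = 0.256). Pdgfrb read 11.44, 11.25 and 11.41 in DB3 and 11.10, 10.96 and 11.44 in sDB3, a difference of 0.20 ± 0.117 (adjusted p = 0.306). The other Pdgfrb probe set did not overlap, with 8.47, 8.39 and 8.53 in DB3 and 8.22, 7.92 and 8.14 in sDB3. It differed by 0.37 (limma adjusted p = 0.0518 in a fit of all probe sets).

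Notch3, with 8.92, 8.82 and 8.79 in DB3 hearts, against 8.83, 8.66 and 8.66 in sDB3, differed by 0.13 ± 0.105 (limma adjusted p = 0.467). The other Notch3 probe set was higher on all DB3 arrays, by 0.35 (limma adjusted p = 0.261 in a fit of all probe sets). For Rgs5 all DB3 arrays (13.77, 13.70 and 13.82) lay above all sDB3 arrays (13.65, 13.50 and 13.55), by 0.20 ± 0.0682 (adjusted p = 0.110). Smtn read 8.90, 9.04 and 8.98 in DB3, against 8.93, 8.69 and 8.77 in sDB3 (0.18 ± 0.0796, adjusted p = 0.188). The median of the 9 differences was 0.18, beside 0.09 for all genes. The signs of Myh11, Tagln, Cnn1 and Mylk turned without DB3 replicate 2, as given next.

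The other contractile genes differed by 0.14 (Myh11), 0.17 (Tagln), 0.45 (Cnn1) and 0.04 (Mylk) in DB3 against sDB3, with limma adjusted p-values of at least 0.672. Without DB3 replicate 2 all 4 signs turned, to -0.37 for Myh11, -0.42 for Tagln, -0.32 for Cnn1 and -0.18 for Mylk. Those of Myh11, Tagln and Mylk turned without sDB3 replicate 3 as well, and that of Mylk also without sDB3 replicate 2, when quantile normalized (-0.03) and when centred on array medians (-0.09). For Cnn1 the 95% interval of the full comparison ran from -0.90 to 1.80.

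Among other mural genes, the share called in DB3 against sDB3 is to be read against the 5.37% of all genes that were higher. Of the 16 other pericyte genes 1 rose, Anpep, which read 6.02, 6.65 and 6.37 in DB3 hearts, against 5.71, 5.62 and 5.27 in sDB3 hearts (0.81 ± 0.161, limma adjusted p = 0.0256). Of the 15 contractile list genes 1 rose, Des (0.29 ± 0.0698, adjusted p = 0.0385), and of the 12 Notch pathway genes 1, Notch1 (0.43 ± 0.113, adjusted p = 0.0499). No gene fell in these lists, and none of the SRF regulators, PDGF, angiopoietin or paralog genes passed either way. Left-out arrays ended the calls of Anpep (DB3 replicate 2 or 3, or sDB3 replicate 2), of Des (any array but AB replicate 1, sAB replicates 1 and 3 and DB3 replicate 2) and of Notch1 (any array but sDB3 replicate 2). All 3 calls were also lost when only the DB3 and sDB3 arrays were fitted (adjusted p = 0.116 for Anpep, 0.132 for Des and 0.164 for Notch1), a fit that called 0 of all genes.

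Set directly against the banded heart, Cspg4 was lower after debanding. The removal of the band, the operation for it and the 3 later days cannot be told apart in this comparison. DB3 arrays (7.98, 7.82 and 7.61) lay below all AB arrays (8.26, 8.46 and 8.49), by 0.60 on the log2 scale (SE 0.134, limma adjusted p = 0.0209). The other Cspg4 probe set fell by 0.56 (adjusted p = 0.00748). It was the single member called in DB3 against AB, with 0 higher, where 4.04% of all genes were higher and 5.12% lower. The call was lost without AB replicate 2, AB replicate 3 or DB3 replicate 3 (adjusted p up to 0.0834), and also with no filter on dim probe sets. Pdgfrb also lay below AB on every DB3 array, with a difference of -0.36 ± 0.117 (adjusted p = 0.0857), and Notch3 overlapped (-0.14 ± 0.105, adjusted p = 0.441). In a limma fit of all probe sets, the other Pdgfrb probe set gave -0.22 (adjusted p = 0.166). The other Notch3 probe set had the opposite sign there, 0.15 (adjusted p = 0.665).

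The difference of effects, DB3 against sDB3 minus AB against sAB, was -0.81 ± 0.189 for Cspg4 (limma adjusted p = 0.0355), so its excess over the sham was smaller after debanding. It was the 1 member called there, lower, with 0 higher, where 3.45% of all genes were higher and 2.59% lower (57.1% of calls higher, against 40.0% after quantile normalization and 26.2% after median centring). The call was lost without any 1 of 8 arrays (adjusted p up to 0.0865, differences -0.92 to -0.71), with no filter on dim probe sets and without moderation of the variances. These are all but AB replicate 1, sAB replicate 2, DB3 replicate 1 and sDB3 replicate 2. For Notch3 the difference of effects was -0.47 ± 0.148 (adjusted p = 0.0890), for Pdgfrb -0.23 ± 0.166 (adjusted p = 0.428) and for Rgs5 0.16 ± 0.0964 (adjusted p = 0.331). In DB3 against AB, band removal, its operation and time cannot be told apart. Heyl was also lower there, by 0.63 on the log2 scale (adjusted p = 0.0221), as were Mcam by 0.49 (adjusted p = 0.00672) and Srf by 0.36 (adjusted p = 0.0400). Angpt1 rose by 1.03 (adjusted p = 0.0232). The call of Mcam was kept without any single array. That of Heyl was lost without AB replicate 2 or 3 or any DB3 array, and that of Angpt1 without AB replicate 2 or 3 or DB3 replicate 1 or 2. That of Srf was lost without any AB or DB3 array, sAB replicate 2 or sDB3 replicate 3.

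No member passed between the shams. In sDB3 against sAB, 0 of 9 members were higher and 0 lower by limma, where 5.49% of all genes were higher and 12.3% lower (30.8% of calls higher, against 49.2% after quantile normalization and 68.7% after median centring). At an unadjusted p under 0.05 there were 2, Notch3 and Smtn. The other Cspg4 probe set did rise, by 0.37 (adjusted p = 0.0269 over probe sets). Notch3 lay higher on all sDB3 arrays (0.33 ± 0.105, adjusted p = 0.0544) and so did Smtn (0.23 ± 0.0796, adjusted p = 0.0703). Both passed when arrays were centred on their medians, at 0.44 and 0.34. Cspg4 differed by 0.21 ± 0.134 (adjusted p = 0.275) and Pdgfrb by -0.13 ± 0.117 (adjusted p = 0.471). Anpep rose by 1.30 ± 0.161 (adjusted p = 0.00127), with group means of 5.53 in sDB3 and 4.23 in sAB. The shams also differ in BioC, and the sDB3 label adds a debanding step at a later time, so array handling, that step and time cannot be told apart here.

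By group mean, the order of Cspg4 was AB (8.40 ± 0.121, SD), DB3 (7.81 ± 0.186), sDB3 (7.55 ± 0.192) and sAB (7.34 ± 0.194). Only the step between AB and DB3 exceeded the spread by the test above, and the steps below it did not. Pdgfrb followed as AB (11.72 ± 0.0591), DB3 (11.37 ± 0.102), sAB (11.29 ± 0.126) and sDB3 (11.17 ± 0.247), where DB3 against AB and sDB3 against sAB did not pass and DB3 was not tested against sAB. For Notch3 the order was AB (8.99 ± 0.146), DB3 (8.84 ± 0.0676), sDB3 (8.71 ± 0.0970) and sAB (8.39 ± 0.183), again without a called step between neighbours. These orders are those of 1 probe set per gene. The other Notch3 probe set had DB3 (7.02) above AB (6.87), and the other Pdgfrb probe set had sDB3 (8.09) above sAB (8.01). Neither difference passed.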

How the data were processed

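The deposited values were log2 signals per probe set, made by the authors with GCRMA, per the submitters' processing notes, from 3 ug total RNA per sample, per the labels' protocols. The sources used here do not give its version or settings, nor whether the 12 arrays were run together. Of 45101 probe sets, 34945 named 1 gene, 932 several and 9160 none (array annotation, symbols updated for 34741), and 64 were controls. Probe sets with log2 above 4 on at least 3 arrays were kept (17817) and the one with the highest mean represented each of 10435 genes. One limma (3.58.1, R 4.3.3) model over the 4 groups, with no covariate, gave moderated tests with Benjamini-Hochberg adjustment over all genes (threshold 0.05); it was tested on simulated data. Every p-value and adjusted p in the text is from it unless another fit is named. Named genes were all members, at most the 4 largest calls of each list and comparison, Acta2, Myocd, Srf and Pdgfb, and the 2 genes most correlated with each member. Members and lists were chosen with earlier results of these data known. Alternatives changed the filter, probe set rule, normalization, samples fitted and moderation, or left out arrays.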

Additional observations from a re-analysis of the deposited data

Results flagged for a closer look

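A test of the difference of effects itself (DB3 against sDB3 minus AB against sAB, limma, adjusted over all genes) passed for 1 member and for several list genes, in log2 units. Cspg4 gave -0.812 (adjusted p = 0.0355), its rise over the sham being smaller after debanding than under the band. Anpep gave -1.113 (adjusted p = 0.0251), Ndufa4l2 -0.888 (0.0191), Mcam -0.628 (0.0183) and Des -0.469 (0.0263). Abcc9 gave 0.465 (adjusted p = 0.0357) and Gsn, a fibroblast marker here that encodes gelsolin, 0.383 (0.0255). Each of the 7 calls was lost without AB replicate 3, and most also without other arrays. Each rests in part on the sAB arrays, whose BioC signal differs, and that share was not tested. Group means in AB and DB3 were 6.157 and 6.345 for Anpep and 13.694 and 13.690 for Des, and neither gene was called in DB3 against AB. Between the shams, sDB3 lay above sAB by 1.30 for Anpep (limma adjusted p = 0.00127) and by 0.47 for Des (0.00296). The negative values of these genes thus go with the difference between the shams, not with a fall from AB to DB3.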

How the results depend on the processing

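The 4 member calls in AB against sAB and the 2 in AB against sDB3 stood under every other normalization, probe set rule and moderation run; Pdgfrb against sAB was lost with no dim filter and with the 3 arrays of highest Tagln left out, an alternative chosen after seeing the data. For DB3 against sDB3, 1 member passed with a trended, robust prior. For DB3 against AB the count was 0 with no dim filter, 0 without the 3 arrays, 2 with only the groups compared and 2 with the trended prior. For sDB3 against sAB it was 1 with a dim filter at 6, 2 after quantile normalization, 2 after median centring and 1 with the trended prior. For the difference of effects it was 0 with no dim filter, 2 after median centring, 0 in an unmoderated analysis of variance and 0 without the 3 arrays. Leaving out 1 array gave 2 to 4 members in AB against sAB, 0 to 2 in DB3 against AB, 0 to 1 in sDB3 against sAB and 0 to 1 for the difference of effects.

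Some signs turned. Median centring gave Rgs5 -0.0068 in AB against sAB, -0.0277 in AB against sDB3 and 0.0208 in sDB3 against sAB, Smtn -0.0627 and Cox4i2 -0.0026 in AB against sDB3, Myh11 -0.0064 in AB against sAB and Mylk -0.0911 in DB3 against sDB3. Quantile normalization gave Smtn -0.0047, Myh11 -0.0075 and Mylk -0.0318 in the same comparisons. The mean of probe sets gave Notch3 0.0045 in DB3 against AB. Without the 3 arrays Cnn1 was 0.163 in AB against sAB, and in DB3 against sDB3 Myh11 was -0.0629, Tagln -0.0334 and Mylk -0.0232. With 1 array left out, AB against sAB ran from -0.1482 to 0.2653 for Myh11, -0.1906 to 0.4783 for Tagln, -0.5273 to 0.163 for Cnn1 and -0.0793 to 0.3011 for Acta2, and DB3 against sDB3 from -0.3701 to 0.4718 for Myh11, -0.4181 to 0.5559 for Tagln, -0.3247 to 0.8477 for Cnn1 and -0.1847 to 0.1995 for Mylk. The cause was not tested. Calls over all genes moved by over 1.5 times in several settings. DB3 against sDB3 had 664, with 323 under no dim filter, 431 adjusted over all probe sets, 199 after quantile normalization, 427 unmoderated, 0 with only the groups compared and 61 without the 3 arrays; 1 array left out gave 170 to 535. For DB3 against AB 956 became 629 with only the groups compared and 476 without the 3 arrays. For sDB3 against sAB 1861 became 571 and 376. For AB against sDB3 2298 became 1352 without the 3 arrays. The difference of effects had 630, with 338 under no dim filter and 29 without the 3 arrays. With 1 array left out the fewest calls came without AB replicate 3 for AB against sAB (1139 of 2058), AB against sDB3 (1124), DB3 against AB (365) and the difference of effects (152), and without sDB3 replicate 2 for sDB3 against sAB (967) and DB3 against sDB3. No paired analysis was possible because the labels give no replicate numbers that groups share.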
